A study of Pleurotus ostreatus with 53 samples.

Results

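The genes described here lay more than 5000 bp from every listed transposable element (TE) copy, had no CG methylation value in any of the 3 PC9 bisulfite libraries and had a value in all 3 PC15 libraries. They numbered 337 of 11820 genes, and 337 of the 10429 genes that lay more than 5000 bp from a TE copy. The other TE-distant genes comprised 9973 with values in both strains, 117 with values in neither and 2 with PC9 values only. The member nearest to a TE copy lay 5013 bp from it, and the nearest gene left out for distance, although it had PC15 values and no PC9 value, lay 4998 bp away. Without the distance limit the same criterion held for 510 genes.

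The samples came from the oyster mushroom Pleurotus ostreatus and formed 6 groups: mycelium of the monokaryon PC9, mycelium of HyB (labelled N001_HyB), which is a dikaryon made by mating PC9 with PC15, mycelium, primordium and fruitbody of the dikaryon N001 (also written N0001 in the labels), and mycelium of the monokaryon PC15. Polyadenylated mRNA, small RNA and bisulfite-converted DNA were sequenced from 3 biological replicates per group, except that 2 bisulfite libraries of primordium were analysed, which gave 53 libraries. Treatments, ages and culture conditions were not given in the labels, and PC9, PC15 and N001 are each a single strain, so strain differences cannot be told apart from differences between these cultures.

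A monokaryon carries nuclei of a single kind, and mating of compatible monokaryons gives a dikaryon in which the nuclei of both parents stay side by side without fusing. PC9 and PC15 are known as monokaryons recovered from N001. Methylated CG sites in mushroom-forming fungi are found mainly in transposable elements, where they accompany a lack of transcription, while the bodies of most expressed genes carry little methylation. A gene can lack a methylation value in a strain for more than one reason, including an absent or diverged sequence and low coverage, and the deposited fractions do not show which held. The coverage behind each fraction is unknown.

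The mRNA libraries held 19628883 to 30123573 mapped reads, recovered from the deposited RPKM values (reads per length of gene and per mapped read of the library), and small RNA depth, as reads on genes and TE copies together, ran from 191411 to 5746479. Replicates 2 and 3 of HyB, and replicates 2 and 3 of primordium, were much closer to each other in mRNA than any other replicate pair. Their counts differed by chi-square values of 3.77 and 1.56 per degree of freedom, against 25.7 to 515 for the other pairs. They exceeded sampling noise and were kept as separate libraries, and results that moved when they were merged are given with both values. Whether these pairs are repeats of a single sample is not known, and the main tests count them as separate replicates. In PC9, N001 mycelium and PC15, replicates 2 and 3 were also closer to each other than to replicate 1, which did not hold in fruitbody. In these bulk samples, fewer cells or nuclei that carry a transcript and less RNA per cell cannot be told apart.

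The members were shorter and nearer to TE copies than the 9973 TE-distant genes with values in both strains. Their median length was 989 bp, against 1438 bp, and their median distance to a TE copy was 28074 bp, against 45045 bp. The shortest spanned 161 bp and the longest 7966 bp. They were unevenly spread over the 12 scaffolds. Scaffold 7 held 54 of them, which was 6.23% of its TE-distant genes, and scaffold 11 held 52, or 6.91%, whereas scaffold 5 held 9, or 0.769%. Scaffold 12 had 63 TE-distant genes, of which 1 was a member (1.59%). The genes carry number IDs in the files, and names or functions for them were not used here.

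Most members had few or no mRNA reads in PC9. Whether a gene was silent in PC9, or absent or too diverged for its reads to map, cannot be told from these counts. Of the 337, 205 had no mRNA read in any of the 3 PC9 libraries, 96 had 1 to 3 reads in all and 36 had more than 3. The members together took 891 PC9 mRNA reads, against 318960 PC15 mRNA reads, and the 3 genes with the most held 48.7% of the PC9 reads. Neither an mRNA read nor a small RNA read was found in PC9 for 120 members. A count of 0 in 3 libraries allows up to 3 reads, and such limits cover counting error only.

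The strain pair PC9 and PC15 chose the members, so its mRNA is given as a description. A mean RPKM of at least 1 was reached by 3 members in PC9 and by 182 members in PC15, and 101 of these 182 had no PC9 read. In limma's fit over all genes, 175 of the 179 members that passed the filter on low values were lower in PC9 and 0 were higher, where 30.6% of all genes tested were lower and 16.1% higher. Of these 179, 49 passed through their PC15 libraries alone and so had to be low elsewhere, while 0 passed through PC9 alone. Nothing is read from this count. The 3 members with PC9 mRNA were genes 163953, 1110956 and 1108083. Gene 163953 had 0.115, 6.54 and 4.55 RPKM in PC9, against 7.23, 4.92 and 4.64 RPKM in PC15, so its PC9 and PC15 libraries overlapped. Gene 1110956 had 0.389, 3.60 and 2.70 RPKM in PC9, against 148, 52.6 and 58.7 RPKM in PC15. Gene 1108083 had 1.18, 1.08 and 1.19 RPKM in PC9, against 9.10, 3.73 and 5.62 RPKM in PC15. In these last 2 genes every PC9 library lay under every PC15 library.

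More members were expressed in PC15 than in either dikaryon, and the fewest among the dikaryotic groups were expressed at the fruiting stages. An RPKM of at least 1 was found for 140, 124 and 126 members in the 3 HyB libraries, for 82, 86 and 90 in N001 mycelium, for 77, 76 and 73 in N001 primordium, for 76, 81 and 74 in N001 fruitbody and for 189, 178 and 173 in PC15. PC9 had 1, 3 and 3. The PC15 libraries did not overlap with those of any other group, and HyB did not overlap with N001, while the primordium and fruitbody counts overlapped with each other and every N001 mycelium count lay above both. Of the 9973 TE-distant genes with values in both strains, 93.0% to 93.9% reached 1 RPKM in the HyB libraries. The shares were 91.6% to 93.5% in N001 mycelium, 90.9% to 91.1% in primordium and 89.0% to 90.8% in fruitbody. They were 93.3% to 95.1% in PC15 and 88.9% to 89.2% in PC9. Lower counts in primordium and fruitbody than in N001 mycelium were thus also seen outside the members. These are counts of genes, with no test.

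**Figure D1:**
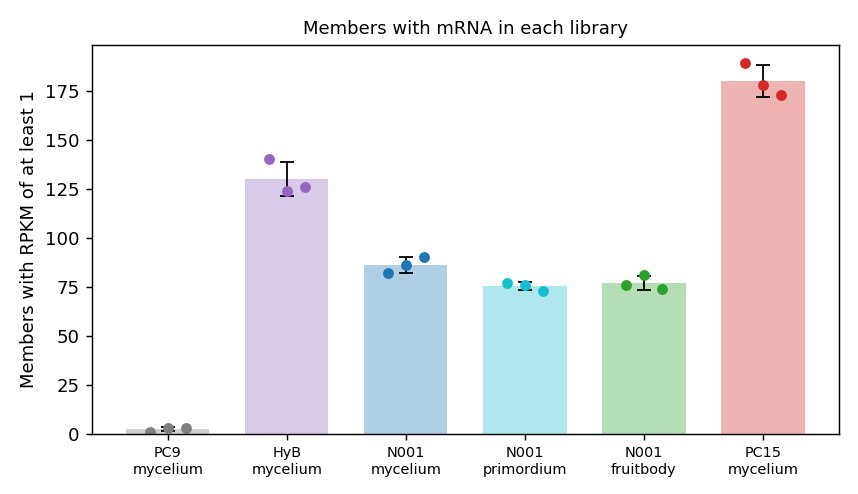
Number of the 337 members with an RPKM of at least 1 (vertical axis) in each library of the 6 groups. Points are libraries, bars are group means and error bars are SD over 3 libraries. PC15 libraries lie between 173 and 189, HyB between 124 and 140, N001 libraries between 73 and 90 and PC9 libraries between 1 and 3.

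The same order held for the amount of mRNA. Among the 182 members with a mean of at least 1 RPKM in PC15, the median ratio to the PC15 level was 0.380 in HyB, 0.112 in N001 mycelium, 0.0912 in N001 primordium and 0.0676 in N001 fruitbody. For the 9432 TE-distant genes with values in both strains and the same PC15 level, the median ratios were 0.870, 0.805, 0.757 and 0.701 for those groups in that order. Less than a ratio of 0.1 remained for 36 of the 182 members in HyB, 90 in N001 mycelium, 92 in primordium and 98 in fruitbody. The counts under 0.1 were 19.8%, 49.5%, 50.5% and 53.8% of the 182, against 1.48%, 3.13%, 4.60% and 5.63% of the 9432 genes. Levels above PC15 were found for 25 of the 182 members in HyB and for 26 in N001 mycelium. Of the 9432 genes, 3963 lay above PC15 in HyB and 3658 in N001 mycelium. These ratios were taken among genes selected for being on in PC15 and carry no test.

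HyB and N001 mycelium were then each compared with PC15 by limma on log2(RPKM + 1), a scale that understates the change of low genes, with Benjamini-Hochberg adjustment over all genes and a threshold of 0.05. Without a filter on low values, 316 members had a read and could be tested. In HyB, 24 were higher and 180 lower than in PC15, where 17.8% of all genes were higher and 28.7% lower. Their median difference was -0.50, against -0.19 over all genes. In N001 mycelium, 19 were higher and 194 lower than in PC15, where 18.7% of all genes were higher and 34.3% lower, and the median was -0.63, against -0.26 over all genes. The share of members that was lower was therefore above the background in both dikaryons.

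With genes kept only at 1 RPKM in at least 3 libraries, 179 members remained, of which 49 passed through their PC15 libraries alone and so had to be low elsewhere. In that fit, 17 members were higher and 118 lower in HyB than in PC15 (19% and 28% of all genes tested), and 19 were higher and 128 lower in N001 mycelium than in PC15 (19.9% and 33.8%). The 2 comparisons share the PC15 libraries. edgeR's quasi-likelihood test on the recovered reads called 21 higher and 105 lower in HyB, and 20 higher and 142 lower in N001 mycelium, out of 208 members tested. Over the 11097 genes of that fit, 23.1% were higher and 20.9% lower in HyB than in PC15, and 25% were higher and 26% lower in N001 mycelium than in PC15.

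The direct comparison of the dikaryons gave fewer calls. Without the filter, 7 of 316 members were higher and 70 lower in N001 mycelium than in HyB, where 3.23% of all genes were higher and 7.07% lower. The median difference of the members was -0.02, against -0.05 over all genes, so the lower level in N001 was a property of a subset. With the filter, 8 of 179 members were higher and 61 lower (3.61% and 7.47% of all genes tested).

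The most expressed members in PC15 differed among themselves in the dikaryons. Gene 1112432 (scaffold 4, 3189523 to 3190212) had 369, 605 and 632 RPKM in HyB, 418, 746 and 692 RPKM in N001 mycelium and 357, 371 and 394 RPKM in PC15, with at most 0.528 RPKM in PC9. Every N001 mycelium library lay above every PC15 library, while HyB overlapped with PC15. The N001 difference from PC15 was 0.68 ± 0.27 (SE; limma, adjusted p = 0.0457). Gene 1114240 (scaffold 9, 1724562 to 1726325) had 76.4, 98.3 and 95.5 RPKM in HyB, 64.2, 98.8 and 105 RPKM in N001 mycelium and 238, 206 and 186 RPKM in PC15. Both dikaryons lay under PC15 without overlap, by -1.21 ± 0.24 in HyB and -1.25 ± 0.24 in N001 mycelium (limma, adjusted p = 0.000666 and 0.000427).

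Gene 1084387 (scaffold 6, 725525 to 726839) was among the members with the largest falls in both dikaryons. It had 2.39, 1.12 and 1.5 RPKM in HyB, 0.859, 2.20 and 3.43 RPKM in N001 mycelium and 184, 117 and 120 RPKM in PC15. The groups were far apart, and the differences from PC15 were -5.72 ± 0.27 in HyB and -5.54 ± 0.27 in N001 mycelium (limma, adjusted p = 1.85e-10 and 1.07e-10). CG methylation was at most 0.418% in every library outside PC9, so this gene was low in the dikaryons with hardly any methylated CG in its body. Gene 169557 had 36.3, 18.6 and 18.5 RPKM in HyB, 9.21, 7.5 and 8.59 RPKM in N001 mycelium and 153, 98.0 and 107 RPKM in PC15, and its methylation stayed at 0.627% or less in all these libraries as well. A low dikaryon level without methylation was thus seen in more than 1 of the highest members.

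Some members were higher in the dikaryons than in PC15. Gene 1096724 (scaffold 4, 3185798 to 3188284) had 22.2, 113 and 124 RPKM in HyB, 47.8, 146 and 110 RPKM in N001 mycelium and 5.86, 4.12 and 4.50 RPKM in PC15. No library of either dikaryon overlapped with PC15, and the differences were 3.58 ± 0.49 and 4.0 ± 0.49 (limma, adjusted p = 2.56e-05 and 5.79e-06). It lies next to gene 1089243 and gene 1112432 in a run of 3 members whose methylation was at most 1.53% in every library outside PC9. Gene 1025037 (scaffold 1, 4546031 to 4546339) had 13.8, 2.15 and 0.935 RPKM in HyB, 502, 223 and 44.6 RPKM in N001 mycelium and 10.3, 3.05 and 3.58 RPKM in PC15. N001 mycelium was higher than PC15 by 4.86 ± 0.83 and higher than HyB by 5.27 ± 0.83 (limma, adjusted p = 0.000146 and 0.000374), and its own libraries varied widely.

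Gene 171907 (scaffold 11, 1648247 to 1649132) was expressed in HyB and at most 0.165 RPKM in the libraries of the other groups. HyB had 21, 97.5 and 101 RPKM, N001 mycelium had 0 in each library, and PC15 had 0.165, 0.145 and 0 RPKM. The difference of HyB from PC15 was 5.78 ± 0.38 (limma, adjusted p = 7.59e-09). The 2 higher HyB values are those of the nearly identical libraries, and with these merged the difference was 5.41. Its mRNA was thus neither that of the parents nor that of N001.

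The members lay on both sides of 10% CG methylation, a level taken here to divide methylated from other genes. In PC15, 190 of 337 members had a mean over 10%, from 10.7% to 94.9%, while the other 147 had a median of 0.240% and reached 9.86%. Over 10% were also 180 of 334 members with a value in HyB, 214 of 335 in N001 mycelium, 215 of 334 in primordium and 215 of 336 in fruitbody. Of the 9973 TE-distant genes with values in both strains, 319 were over 10% in HyB (3.20%), 331 in N001 mycelium (3.32%) and 227 in PC15 (2.28%). Methylated genes therefore formed 56.4% of the members in PC15, and a small minority of their TE-distant counterparts.

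The level among the members was higher in N001 than in HyB or PC15. The median over members was 11.3% to 13.5% in the 3 HyB libraries, 47.0% to 49.7% in N001 mycelium and 14.2% to 14.8% in PC15. It was 50.8% and 52.6% in the 2 primordium libraries and 49.0% to 49.9% in fruitbody. The N001 libraries did not overlap with those of HyB or PC15.

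Differences in methylation were tested by limma on percentage points over genes with a value in all 14 libraries outside PC9, which kept 332 members. In N001 mycelium, 200 of 332 members were higher and 8 lower than in PC15, where 9.72% of all genes tested were higher and 1.92% lower. The median difference was +24.6 points, against -0.00528 over all genes. Relative to HyB, 193 members were higher and 12 lower in N001 mycelium (8.67% and 1.78% of all genes), with a median of +18 points. In HyB, 53 were higher and 48 lower than in PC15 (6.36% and 2.58% of all genes), with a median of -0.00487 points. PC15 libraries enter the first and the last of these comparisons, and HyB and N001 libraries each enter a pair of them.

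Most of the N001 difference lay in genes that were already methylated in PC15. Of the 190 members over 10% in PC15, 187 could be tested, and 170 were higher and 4 lower in N001 mycelium than in PC15, with a median of +35.1 points. The class median was 24.6% in HyB, 62.6% in N001 mycelium and 26.5% in PC15. Levels over 40% were reached by 44 of these members in HyB, 172 in N001 mycelium and 37 in PC15. In the 147 members at 10% or less in PC15, 30 of 145 tested were higher (20.7%) and 4 lower in N001 mycelium, and 18 were over 40% there. Since the class was cut on PC15 values, its PC15 level is part of the selection, and the HyB and N001 levels are the independent ones.

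The same rise was seen in comparable genes outside the members. Of the 227 TE-distant genes with values in both strains and over 10% in PC15, 192 were higher and 16 lower in N001 mycelium than in PC15, with a median of +39.2 points. In HyB, 125 of these 227 were higher and 40 lower than in PC15, with a median of +9.43 points. The corresponding counts in HyB for the 187 methylated members were 38 higher and 44 lower, with a median of -0.67 points. The 227 genes had a median methylation of 67.5% in PC9, 39.0% in HyB, 69.3% in N001 mycelium and 26.1% in PC15. Among TE-distant genes with values in both strains and 10% or less in PC15, 282 of 9746 were higher (2.89%) and 165 lower in N001 mycelium than in PC15. The differences between these gene sets were not tested.

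**Figure D2:**
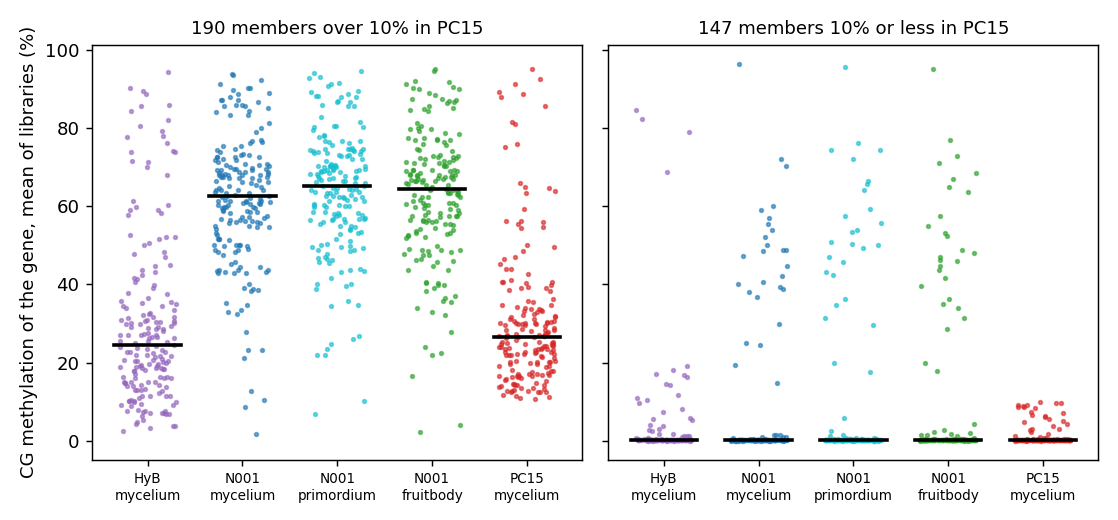
CG methylation of each member in percent, as the mean of the libraries of a group (vertical axis), for the 190 members over 10% in PC15 (left) and the 147 at 10% or less (right). Each point is a gene and each black line the median of the class. In the left panel the medians are 24.6% in HyB, 62.6% in N001 mycelium, 65.1% in primordium, 64.3% in fruitbody and 26.5% in PC15.

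Gene 1107979 (scaffold 8, 2512065 to 2514640) had a middling level in HyB and PC15 and a high one in N001. Its methylation was 23.5%, 18.7% and 18.9% in HyB, 62.0%, 60.5% and 61.6% in N001 mycelium and 20.4%, 20.7% and 22.1% in PC15. N001 mycelium was 40.3 ± 1.81 points above PC15 and 41.0 ± 1.81 points above HyB (limma, adjusted p = 4.45e-10 and 7.43e-10). Its mRNA was 29.4, 26.3 and 25.9 RPKM in HyB, 0.0129, 0.0170 and 0.0172 RPKM in N001 mycelium and 50.2, 54.5 and 51.3 RPKM in PC15. The log2(RPKM + 1) difference was -5.71 ± 0.13 for N001 mycelium and -0.91 ± 0.13 for HyB, each against PC15 (limma, adjusted p = 4.83e-14 and 3.98e-05).

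Gene 165415 (scaffold 2, 1358313 to 1361642) was unmethylated in PC15 and nearly so in HyB. It had 1.61%, 1.32% and 1.09% in HyB, 49.8%, 46.6% and 49.3% in N001 mycelium and 0.250%, 0.220% and 0.233% in PC15. N001 mycelium lay 48.3 ± 1.17 points above PC15 (limma, adjusted p = 1.87e-12). Its mRNA was 13.4, 12.4 and 11.4 RPKM in HyB, 0.00997, 0 and 0.0133 RPKM in N001 mycelium and 31.8, 42.1 and 42.6 RPKM in PC15. N001 mycelium and HyB were lower than PC15 by -5.29 ± 0.14 and -1.56 ± 0.14 on the log2(RPKM + 1) scale (limma, adjusted p = 1.29e-13 and 2.65e-07). Its level in N001 was 0.0124, 0.0135 and 0 RPKM in fruitbody, with methylation from 46.8% to 50.3%, so the N001 state was the same at this stage.

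Gene 157607 (scaffold 4, 3564990 to 3565474) was methylated in both dikaryons. It had 79.2%, 74.6% and 82.9% in HyB, 94.9%, 96.9% and 97.5% in N001 mycelium and 0.600%, 1.10% and 0.300% in PC15. The differences from PC15 were 78.2 ± 1.91 points in HyB and 95.8 ± 1.91 points in N001 mycelium (limma, adjusted p = 6.15e-12 and 7.63e-13). No mRNA read was found in HyB or N001, while PC15 had 21.5, 4.14 and 3.68 RPKM.

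Lower methylation in N001 mycelium than in PC15 was rare, and the 3 members with the largest such falls had at most 0.0916 RPKM of mRNA outside PC9. Gene 1108747 (scaffold 10, 304576 to 305111) had 90.1%, 89.8% and 90.4% in HyB, 41.9%, 50.5% and 25% in N001 mycelium and 60.1%, 78.4% and 55.4% in PC15, with no mRNA read in any library. It was 25.5 ± 6.25 points higher in HyB and -25.5 ± 6.25 points in N001 mycelium, each against PC15 (limma, adjusted p = 0.0170 and 0.0124). The N001 difference was -18.45 points without N001 mycelium replicate 3 and -18.63 points without PC15 replicate 2, and was no longer past the threshold in either case. Gene 1100952, which starts at base 228 of scaffold 3, had 4.50%, 0.750% and 6.0% in HyB, 14%, 7.5% and 4.75% in N001 mycelium and 27.0%, 25.8% and 30.2% in PC15. Both dikaryons lay under PC15 without overlap. The members with the highest mean methylation, genes 1103925, 1109643, 1082602, 1022702 and 1102575, were at 81.7% or more in every library outside PC9 with 1 exception, a HyB library of gene 1109643 at 68.2%.

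None of the members with more methylation in N001 mycelium than in PC15 was called higher in mRNA there. Of the 200 members with higher methylation in N001 mycelium, 186 had an mRNA read, and 132 of these were lower (71.0%) and 0 higher in mRNA in N001 mycelium than in PC15. Over all genes with higher methylation, 654 of 1077 were lower (60.7%) and 80 higher. Of 121 members whose methylation was not called, 60 were lower (49.6%) and 17 higher, where the figures over all such genes were 3277 lower of 10250 (32.0%) and 2040 higher. Of the 8 members with lower methylation, 7 had a read, and 2 were higher (28.6%) and 0 lower in mRNA, where 65 of 222 such genes were higher (29.3%) and 49 lower. Among members that passed the filter on low values, which 49 of 179 did through PC15 alone, 75 of 76 with higher methylation were lower in mRNA (98.7%), and 52 of 99 with methylation not called (52.5%). Over all genes that passed, these shares were 66.1% and 32.1%.

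In HyB most members in each methylation class were lower in mRNA. Of 50 members with higher methylation in HyB than in PC15, 32 were lower in mRNA (64.0%) and 1 higher, where 366 of 706 such genes over all genes were lower (51.8%). Of 47 members with lower methylation, 27 were lower in mRNA (57.4%) and 3 higher, where 86 of 295 such genes were lower (29.2%). Of 217 members whose methylation was not called, 120 were lower (55.3%) and 20 higher, where 2872 of 10548 such genes were lower (27.2%). The shares of members depended on the filter on low values. With it, 16 of 17 members with higher methylation were lower in mRNA (94.1%), 17 of 27 with lower methylation (63.0%) and 85 of 134 with methylation not called (63.4%). Over all genes that passed the filter, these shares were 53.7%, 27.3% and 26.9% in that order. Of the 179 members that passed, 49 did so through PC15 alone and so had to be low elsewhere. The difference between N001 mycelium and HyB in these shares was not tested.

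**Figure D3:**
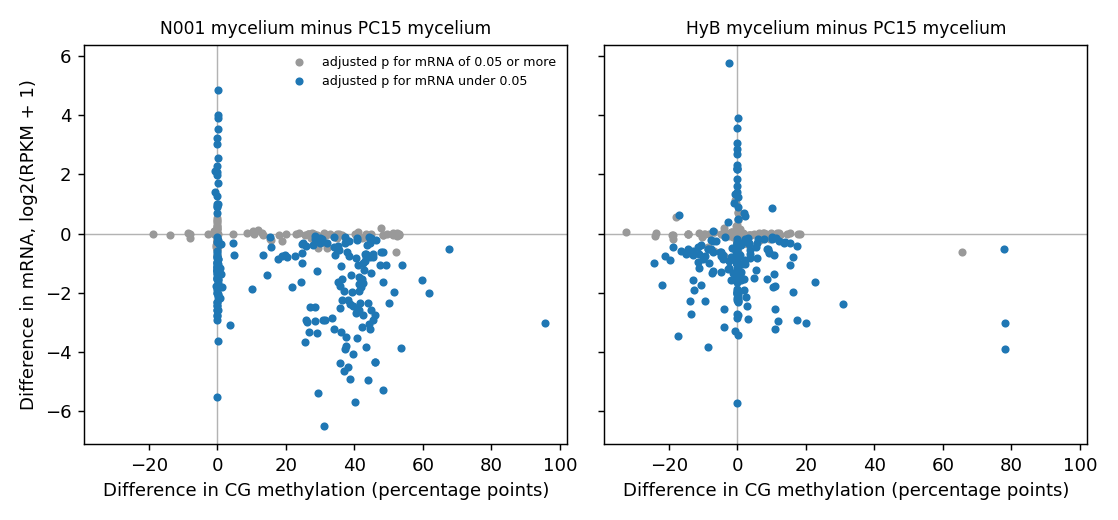
Difference in CG methylation in percentage points (horizontal axis) against the difference in mRNA on the log2(RPKM + 1) scale (vertical axis) for members with both values, for N001 mycelium minus PC15 (left) and HyB minus PC15 (right). Each point is a gene, in blue where the adjusted p for mRNA is under 0.05. On the left, blue points with methylation higher in N001 by a called amount, 132 genes, all lie under 0.

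Most members that were expressed in PC15 and nearly silent in N001 belonged to the class over 10% methylated in PC15. Of the 190 members over 10% in PC15, a mean of at least 1 RPKM was reached by 38 in HyB, 1 in N001 mycelium, 2 in primordium, 2 in fruitbody and 76 in PC15. Among those 76, 27 were under 0.1 of their PC15 level in HyB and 73 in N001 mycelium, and the median ratio was 0.271 in HyB and 9.03e-05 in N001 mycelium. The pattern was not particular to the members. Of the 227 TE-distant genes with values in both strains and over 10% in PC15, 96 reached 1 RPKM in PC15. Among those 96, 29 were under 0.1 of their PC15 level in HyB and 68 in N001 mycelium, with median ratios of 0.342 and 0.00226. Of the 147 members at 10% or less, at least 1 RPKM was reached by 94 in HyB, 88 in N001 mycelium, 73 in primordium, 75 in fruitbody and 106 in PC15. Among those 106, 17 were under 0.1 of their PC15 level in N001 mycelium, and the median ratio to PC15 was 0.451 in HyB, 0.424 in N001 mycelium, 0.304 in primordium and 0.278 in fruitbody. Members at 10% or less in PC15, some of which were methylated in N001 as given above, thus had median ratios in HyB and N001 mycelium that lay closer together than those of the members over 10%, a difference that was not tested.

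Gene 1016424 (scaffold 1, 3747923 to 3748199) belonged to the methylated class and kept its mRNA in HyB. It had 109, 45.4 and 45.4 RPKM in HyB, 0 in each N001 mycelium library and 44, 37.6 and 41.3 RPKM in PC15. Its methylation was 10.9%, 7.69% and 8.83% in HyB, 56.6%, 56.1% and 57.0% in N001 mycelium and 24.1%, 32.3% and 24.8% in PC15. HyB methylation was -17.9 ± 2.21 points and N001 mycelium methylation 29.5 ± 2.21 points relative to PC15 (limma, adjusted p = 5.07e-05 and 1.13e-07). N001 mycelium mRNA was lower than PC15 by -5.39 ± 0.25 on the log2(RPKM + 1) scale (limma, adjusted p = 5.25e-11).

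Gene 1085232 (scaffold 7, 2038866 to 2039530) had the largest mRNA fall in N001 mycelium. It had 31.8, 12.9 and 13.8 RPKM in HyB, 0.05, 0 and 0 RPKM in N001 mycelium and 101, 84.8 and 91.5 RPKM in PC15. The differences from PC15 were -6.52 ± 0.24 in N001 mycelium and -2.3 ± 0.24 in HyB (limma, adjusted p = 4.88e-12 and 1.62e-06). Its methylation was 11.9%, 8.82% and 8.87% in HyB, 55.9%, 53.9% and 54.3% in N001 mycelium and 21.6%, 24.6% and 24.4% in PC15, so HyB was under PC15 in both measures.

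**Figure D4:**
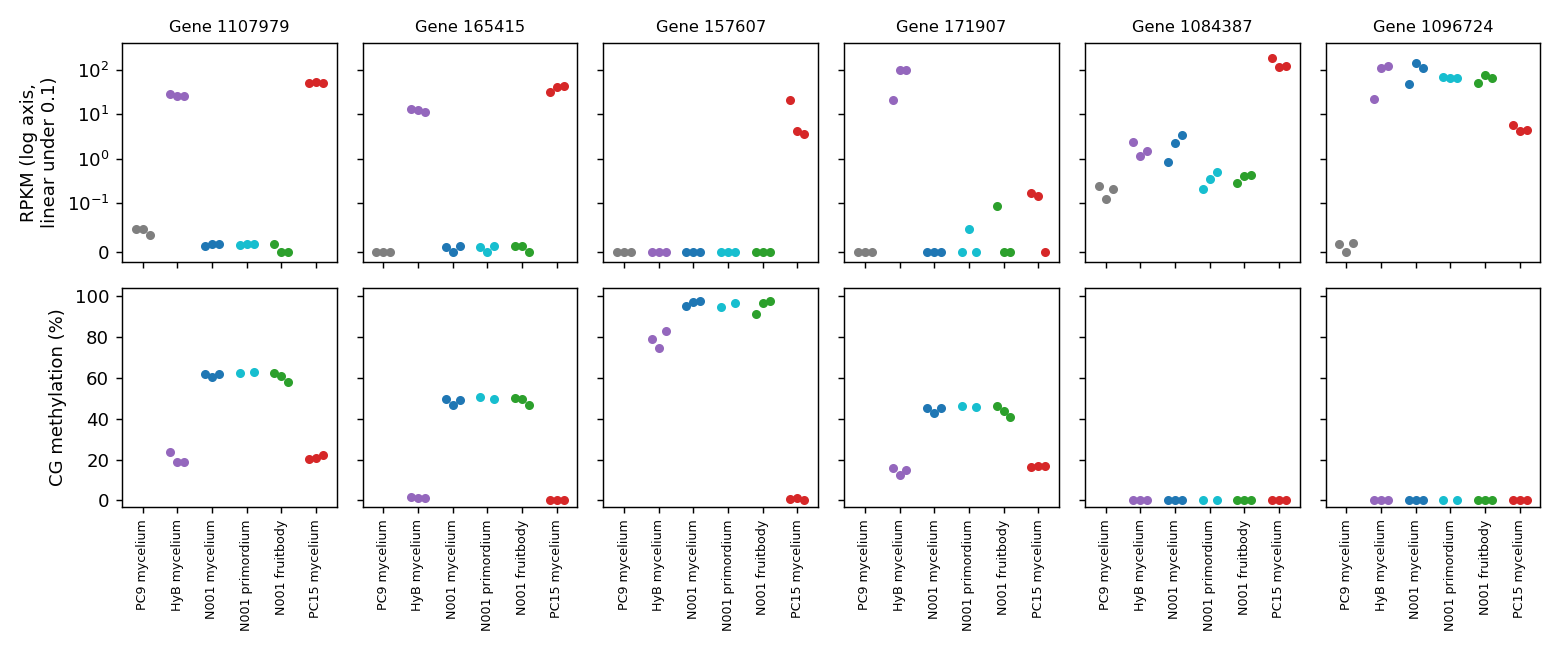
RPKM (top row, log axis that is linear under 0.1) and CG methylation in percent (bottom row) of 6 members in each library; PC9 has no methylation value. Genes 1107979, 165415 and 157607 have N001 methylation of 46.6% or more with RPKM under 0.1, gene 171907 is expressed in HyB, gene 1084387 in PC15, and gene 1096724 is higher in HyB and N001 than in PC15.

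Members lay side by side. Counted along the scaffolds in the order of the mRNA table, 254 of the 337 had a member as a direct neighbour, in 152 runs of which 83 were single genes, 36 were pairs and 33 held 3 genes or more. The longest run held 16 genes, and runs of 3 or more held 182 members. When a run was broken only by a gene with a PC9 value, runs of 3 or more held 197. Since the rule fixes membership and not neighbourhood, runs are reported as counts.

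The 33 runs of 3 or more had 65 flanking genes. Of these, 58 had a PC9 methylation value, which follows largely from the rule, since a run ends at the first gene that is no member. A mean of at least 1 RPKM was reached by 33 of these 65 in PC9 and 43 in PC15, with medians of 1.05 and 3.78 RPKM. Of the 61 flanking genes with a PC15 value, 22 were over 10% methylated there, so some of the genes next to a run were methylated as well.

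Neighbours in a run mostly had the same methylation class. Of 185 neighbouring pairs, 106 were both over 10% in PC15, 51 were both at 10% or less, and 28 were on either side. Of the 33 runs, 15 had all genes over 10% in PC15, 7 had none and 11 were mixed. In N001 mycelium all genes were over 10% in 21 runs. The 24 runs with a PC15 median over 10% had PC15 medians from 12.5% to 63.2% and N001 mycelium medians from 41.9% to 84.3%, and 23 of the 24 were higher in N001 mycelium.

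The longest run spanned scaffold 4 from 74764 to 106761, beginning with gene 156307 and ending with gene 1102612. Its 16 genes had median methylation of 18.8% in HyB, 41.9% in N001 mycelium and 15.5% in PC15, and 2 of them had at least 1 RPKM in PC15. The most expressed, gene 1102605, had 3.61, 1.47 and 1.73 RPKM in HyB, 0.0299, 0 and 0 RPKM in N001 mycelium and 17.3, 10.4 and 12.3 RPKM in PC15. Its methylation was 15.9%, 15% and 14.1% in HyB, 50.4%, 49.5% and 50.1% in N001 mycelium and 12.6%, 11.8% and 13.2% in PC15, so N001 stood far above both.

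The second longest run was of both kinds. It spanned scaffold 11 from 2843356 to 2872611 and held 10 genes, with the first of them 169202 bp from the nearest listed TE copy. Of these, 8 had at least 1 RPKM in HyB and 7 in N001 mycelium. Its first gene, 172208, had 18.4, 58.3 and 58.9 RPKM in HyB, 98.9, 82.1 and 73.9 RPKM in N001 mycelium and 10.3, 7.81 and 6.43 RPKM in PC15, with methylation of at most 0.309% in every library outside PC9. Its last gene, 172212, had no mRNA read in any library and methylation of 83.3%, 81.0% and 81.6% in HyB, 90.7%, 86.0% and 90.3% in N001 mycelium and 80.2%, 81.5% and 80.8% in PC15. An unmethylated expressed end and a methylated silent end thus stood in 1 run.

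Every run of 9 genes had 0 genes at 1 RPKM or more in N001 mycelium, and only the run described next had any in HyB. The run on scaffold 11 from 2062722 to 2082136 had 8 of 9 genes at 1 RPKM or more in HyB, 0 in N001 mycelium and 8 in PC15. Its methylation by gene was 23.2% to 30.2% in HyB, 55.9% to 76.6% in N001 mycelium and 22.7% to 31.5% in PC15. Gene 1087261 of this run had 6.83, 6.26 and 6.89 RPKM in HyB, 0 in each N001 mycelium library and 16.5, 21.9 and 22.4 RPKM in PC15. HyB and N001 mycelium lay under PC15 by -1.46 ± 0.13 and -4.40 ± 0.13 (limma, adjusted p = 2.42e-07 and 2.86e-13).

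The run on scaffold 3 from 488430 to 507468 had 0 of 9 genes at 1 RPKM or more in HyB, 0 in N001 mycelium and 4 in PC15. Methylation by gene was 20.4% to 41.6% in HyB, 43.2% to 83.3% in N001 mycelium and 12.5% to 28.8% in PC15. Its last gene, 154782, had 0.0349, 0 and 0 RPKM in HyB, 0, 0.0437 and 0 RPKM in N001 mycelium and 5.90, 6.39 and 7.95 RPKM in PC15. The methylation of that gene was 45.8%, 40.3% and 38.6% in HyB, 51.9%, 48.9% and 49.4% in N001 mycelium and 23.6%, 24.3% and 24.9% in PC15, with no overlap of the groups.

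A run of 4 genes on scaffold 4 from 3563069 to 3567756, which holds genes 1103907, 157607 and 167688, had low methylation in PC15 and high methylation in both dikaryons. Methylation by gene was 68.6% to 84.5% in HyB, 55.4% to 96.4% in N001 mycelium and 0.667% to 6.35% in PC15. None had an mRNA read in HyB, the highest mean in N001 mycelium was 0.00575 RPKM, and PC15 means ran from 0.450 to 14.4 RPKM. Gene 167688 had 82.8%, 83.5% and 87.1% methylation in HyB, 61.0%, 59.7% and 59.7% in N001 mycelium and 8.56%, 5.79% and 4.70% in PC15. HyB was thus above N001 in this gene, and N001 mycelium lay -24.3 ± 2.21 points from HyB (limma, adjusted p = 1.30e-06).

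The run of 7 genes on scaffold 6 from 715436 to 726839 had at most 0.460% mean methylation in every group measured, and its genes went opposite ways. Gene 1105412 had 4.29, 13.5 and 14.1 RPKM in HyB, 20.9, 20.3 and 20.4 RPKM in N001 mycelium and 0.872, 0.182 and 0.325 RPKM in PC15. Gene 1105413 had 47.8, 28.6 and 29.7 RPKM in HyB, 21, 30.6 and 28.4 RPKM in N001 mycelium and 1.86, 1.13 and 1.13 RPKM in PC15. Gene 1105413 was higher by 3.91 ± 0.27 in HyB and 3.54 ± 0.27 in N001 mycelium than in PC15 (limma, adjusted p = 1.19e-08 and 2.35e-08). Gene 1084387, at the other end of the run, was lower in both dikaryons, as given above.

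**Figure D5:**
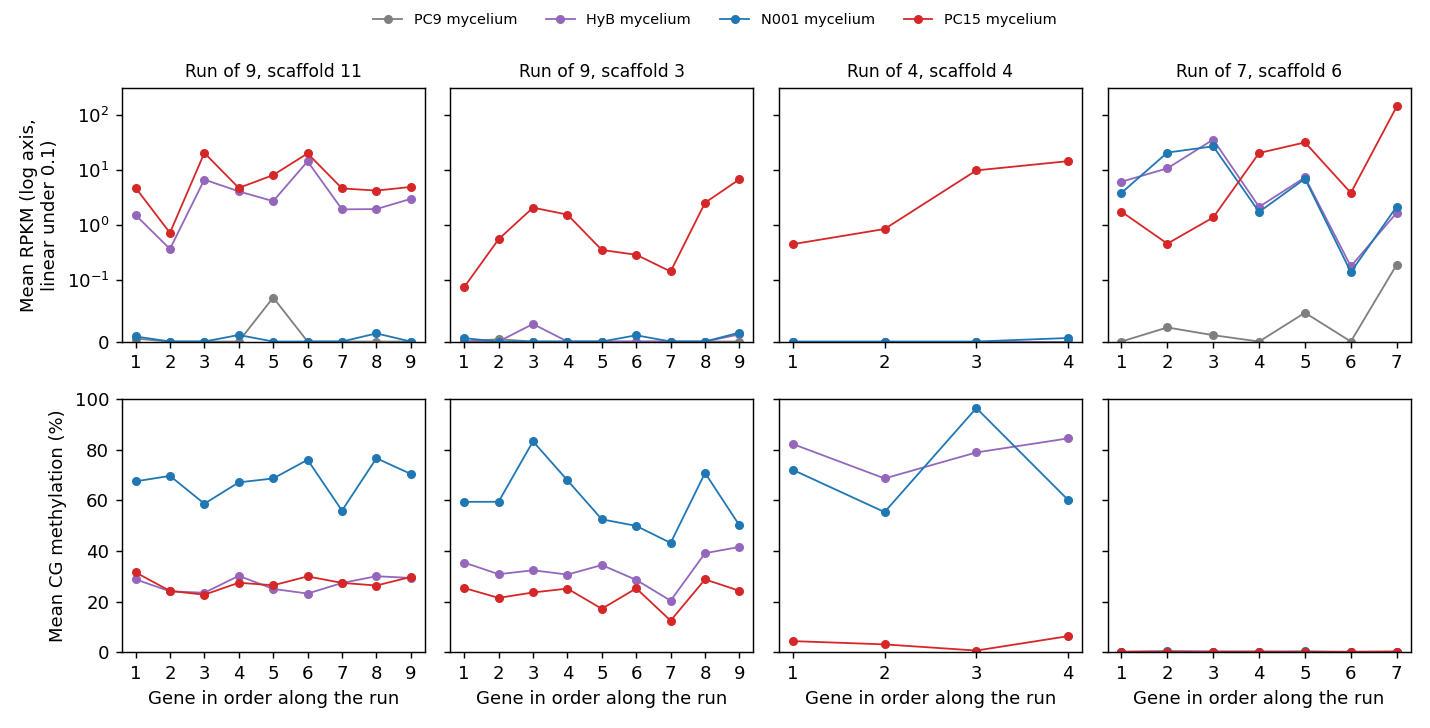
Mean RPKM (top row, log axis that is linear under 0.1) and mean CG methylation in percent (bottom row) of the genes of 4 runs, in order along the scaffold (horizontal axis), in PC9, HyB, N001 mycelium and PC15; PC9 has no methylation value. From left to right, HyB keeps mRNA in 8 of 9 genes, HyB has 0 of 9 genes at 1 RPKM or more, both dikaryons are methylated at 55.4% or more, and no group has methylation above 0.460%.

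Small RNA was sparse on most members. Reads were found on 49 to 126 members in the PC9 libraries, 197 to 247 in HyB, 187 to 201 in N001 mycelium and 224 to 262 in PC15. Depth differed widely between libraries, so these counts set no order. The filter on low counts kept 84 members, and edgeR's quasi-likelihood test with TMM scaling and Benjamini-Hochberg adjustment called 3 of them higher and 54 lower in PC9 than in PC15, where 14.7% of all genes tested were higher and 15.3% lower. That pair chose the members, and nothing is read from it.

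Small RNA in the dikaryons was higher on some members and lower on others. In HyB, 12 of 84 members were higher and 17 lower than in PC15 (14.7% and 11.2% of all genes tested). In N001 mycelium, 13 were higher and 28 lower than in PC15 (16.6% and 16.2%). These were 14.3% and 20.2% of the members tested in HyB, and 15.5% and 33.3% in N001 mycelium. With TMM, the share of members that was higher did not exceed the background in either dikaryon, while the share that was lower did. With library totals in place of TMM, 17 were higher and 11 lower in HyB (10.3% and 5.16% of all genes), and 28 were higher and 16 lower in N001 mycelium (22% and 4.78%), out of 81 tested. The median over all genes was 0.06 log2 units under library totals and 0.04 under TMM for HyB against PC15, and 0.79 and 0.004 for N001 mycelium against PC15. Which direction had more members called thus depended on the scaling in both dikaryons. Between N001 mycelium and HyB, 2 were higher and 7 lower (1.29% and 2.99% of all genes).

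Gene 1084862 (scaffold 7, 239246 to 246599) carried the most small RNA, and carried it in PC9. In reads scaled to the gene and TE reads of each library (RPM), it had 16999, 8274 and 8427 in PC9, 487, 352 and 1267 in HyB, 2100, 2142 and 1477 in N001 mycelium and 44, 43.7 and 31.6 in PC15. These PC9 values were 97682, 10552 and 6745 reads, while PC9 mRNA gave 6, 3 and 2 reads. HyB and N001 mycelium were higher than PC15 by 4.17 ± 0.98 and 4.87 ± 1.01 log2 units (edgeR, adjusted p = 0.00413 and 0.00115). Its methylation was 14%, 6.50% and 9.88% in HyB, 71.4%, 70.7% and 76.9% in N001 mycelium and 10.5%, 11.6% and 11.1% in PC15, and its mRNA was 1.07, 0.132 and 0.176 RPKM, at most 0.0238 RPKM, and 2.58, 3.30 and 3.52 RPKM in those groups. It thus took many PC9 small RNA reads without a PC9 methylation value.

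Gene 172212 had small RNA in every group without mRNA in any. It had 3336, 691 and 707 RPM in PC9, 874, 1829 and 1771 RPM in HyB, 1938, 3779.5 and 3757 RPM in N001 mycelium and 2652, 3462 and 4115 RPM in PC15. HyB lay under PC15 without overlap, and N001 mycelium overlapped with PC15. Gene 1107865 (scaffold 8, 2143416 to 2145054) had 0 RPM in PC9, 832, 1478 and 1441 RPM in HyB, 0 in each N001 mycelium library and 9.86, 0 and 3.32 RPM in PC15. HyB was higher than PC15 by 7.90 ± 0.79 log2 units (edgeR, adjusted p = 2.90e-05), and no fold is given against the N001 libraries at 0. Its methylation was 21.3%, 13.5% and 23% in HyB, 57.9%, 56.0% and 55.6% in N001 mycelium and 17.6%, 22.6% and 21.2% in PC15.

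Other members had most small RNA in PC15. Gene 169994 (scaffold 11, 14543 to 15596) had 27.3, 21.9 and 19.8 RPM in HyB, 19.7, 25.2 and 21.5 RPM in N001 mycelium and 436, 434 and 478 RPM in PC15. It was lower by -4.26 ± 0.42 in HyB and -5.06 ± 0.44 log2 units in N001 mycelium than in PC15 (edgeR, adjusted p = 2.51e-06 and 6.20e-07). Its methylation went the other way, with 87.7%, 85.0% and 84.0% in HyB, 88.0%, 84.3% and 87.6% in N001 mycelium and 76.0%, 75.5% and 76.1% in PC15. Gene 1085459 had 91.8, 149.8 and 166 RPM in HyB, 194, 231 and 193 RPM in N001 mycelium and 2093, 955 and 1430.2 RPM in PC15, with no mRNA read in any library.

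N001 primordium differed from N001 mycelium in mRNA in a minority of members, and fruitbody was tested against primordium only. Between N001 primordium and mycelium, 9 of 179 members were higher and 31 lower in mRNA, where 15.8% of all genes tested were higher and 21.8% lower, so the share of members that was higher or lower did not exceed the background. Merging the nearly identical library pairs left 4 higher and 20 lower, so this count rests on how those pairs are treated. Gene 1073080 (scaffold 1, 304173 to 305806) fell most. It had 5.33, 4.38 and 4.02 RPKM in primordium, against 93.5, 129.9 and 167 RPKM in mycelium, a difference of -4.52 ± 0.30 (limma, adjusted p = 2.41e-08), and its methylation stayed at 0.378% or less in every library outside PC9. Fruitbody had 4.59, 4.28 and 3.41 RPKM of it. Gene 1015389 (scaffold 11, 2856554 to 2857209), in the run of 10, had 7.11, 13.7 and 14.7 RPKM in primordium, against 2.38, 1.94 and 1.01 RPKM in mycelium, and was higher by 2.18 ± 0.38 (limma, adjusted p = 0.000363).

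No member passed the threshold in mRNA between fruitbody and primordium, by limma or by edgeR, where limma called 0.0458% of all genes tested higher and 0.229% lower, and 10 members had an unadjusted p under 0.05. CG methylation gave 0 calls among the members and over all genes (0%) between primordium and mycelium, with 35 members at an unadjusted limma p under 0.05, and 0 calls (0%) between fruitbody and primordium, with 14. At all 3 stages the median methylation of the members in N001 libraries lay above that of HyB and PC15, as given above. Primordium and fruitbody were not tested against HyB or PC15. With 2 primordium libraries a moderate stage difference might not have been detectable.

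Small RNA differed between the N001 stages in a few members. In primordium 10 of 84 were higher and 2 lower than in mycelium by edgeR (3.95% and 2.79% of all genes tested), and between fruitbody and primordium 0 passed, with 7 at an unadjusted p under 0.05 (0% of all genes were higher and 0.045% lower). Genes 1087260 and 36655, the ends of the run of 9 on scaffold 11, were among those higher in primordium. Gene 1087260 had 80.5, 79.6 and 63.1 RPM in primordium, against 39.4, 13.3 and 16.1 RPM in mycelium, and 99.6, 549 and 200.3 RPM in fruitbody. Gene 36655 had 86.4, 72.8 and 63.1 RPM in primordium, against 25.7, 18.6 and 8.05 RPM in mycelium, and 103, 334 and 138 RPM in fruitbody. The primordium differences from mycelium were 2.3 ± 0.66 and 2.68 ± 0.71 log2 units (edgeR, adjusted p = 0.0412 and 0.0282). Their mRNA was at most 0.0141 RPKM in all N001 libraries. The count of members called in this comparison rested on single libraries: it was 2 without N001 mycelium replicate 2 or without primordium replicate 2, and 3 without N001 mycelium replicate 3 or without primordium replicate 3.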

How the data were processed

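The deposited mRNA values are RPKM per gene, the deposited small RNA values are read counts per gene and per TE copy, and the deposited methylation values are the fraction of methylated CG per gene, each as computed by the authors. STAR 2.3.16, BS-Seeker2 and FastQC are named in the submitters' processing notes, and the genome build is not given in the sources used here. Positions follow the mRNA table. None of the gene IDs matched the 11849 genes of the RefSeq table. Members and lists were chosen with earlier results of these data known, including the named genes (highest levels, largest calls without overlap, ends of the longest runs).

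All 6 groups entered 1 fit for mRNA and 1 for small RNA, and the methylation fit left out PC9. These were limma 3.58.1 on log2(RPKM + 1) with 1 RPKM in at least 3 libraries, edgeR 4.0.16 on counts with TMM, and limma on methylation in percentage points, in R 4.3.3. P-values were adjusted by Benjamini-Hochberg over all genes per comparison, two-sided, at 0.05. Reads recovered from RPKM were whole within 0.01 reads for 95.5% to 95.8% of values, and edgeR run on them called 5443, 4883 and 5664 of 11097 genes for PC9, HyB and N001 mycelium against PC15, 1322 between N001 mycelium and HyB, 4263 between primordium and mycelium, and 22 between fruitbody and primordium. The fits were checked on simulated data. Alternatives were DESeq2 1.42.0, other filters, scalings and pseudocounts, merged libraries, a replicate block and leaving out each library.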

Additional observations from a re-analysis of the deposited data

How the results depend on the processing

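Of 174 counts of members under alternative settings, 156 stayed within 1.5 times, and of 642 values of 64 comparisons of named genes, 603 kept their direction and side of the threshold, 39 lost the threshold and 0 reversed. Without the filter on low values the calls were 204 for mRNA in HyB against PC15, and 162, 46 and 76 for small RNA in PC9, HyB and N001 mycelium against PC15, since more members were tested; DESeq2 gave 139 for small RNA in PC9 against PC15. Merging the nearly identical libraries gave 24 calls for mRNA in primordium against mycelium, and library totals gave 1 for small RNA in fruitbody against primordium. Leaving out 1 library gave 0 to 2 calls for mRNA and 0 to 1 for methylation in fruitbody against primordium. For small RNA it gave 5 to 8 calls in N001 mycelium against HyB, 5 without HyB replicate 2, N001 mycelium replicate 1 or N001 mycelium replicate 2, and 2 to 8 in primordium against mycelium. Without the distance limit there were 510 members. The cause was not tested where none is given. Same-number correlations of deviations from the group means ran from -0.07 to 0.51 for mRNA (median 0.18, against -0.10 for other numbers, with 14 of 18 libraries correlating best with their own number, a hint from the data and not the design), from -0.23 to 0.24 for small RNA and from -0.22 to 0.62 for methylation. Since they were not all over 0.1, the numbers were not taken as pairs. With a replicate block the calls were 137 and 147 for mRNA and 102 and 206 for methylation in HyB and N001 mycelium against PC15, and no count moved by over 1.5 times. The counts in this section show how the calls moved with the setting and are not read against a background. Small RNA depth limits what sparse members can show.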
